A study of Mus musculus with 6 samples.

Results

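The vomeronasal type 1 receptor (Vmn1r) cluster of mouse chromosome 7 was taken as every non-control probe of the array that starts between 21 and 24 Mb on chromosome 7 (mm9). The window holds 412 of the 174638 probes, and 410 of them fall into 76 of the 21987 regions on the array, while the remaining 2 lie in runs too short to form a region. A region is a run of at least 3 probes whose neighbouring starts are at most 1000 bp apart. The window was chosen because earlier values of these same arrays were low there, so its low level is given below as a description with no test. The scanner files name no genes, and no annotation of mm9 was used here, so single regions could not be tied to single receptor genes and the receptor name was not checked against the files.

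The study profiled DNA methylation in the liver of offspring, at 32 weeks of age, of dams fed a chromium-restricted diet (3 arrays) and of dams fed a control diet (3 arrays). Immunoprecipitated methylated DNA was labelled with Cy5 and input DNA with Cy3 on every array, so the log2 ratio of the channels is an enrichment of methylated DNA over input, and no dyes were swapped. The samples are titled as liver, but their extraction protocol speaks of fat. Strain, sex and litter are not given, and nothing says that the 3 arrays of a diet came from separate animals, so a p-value here covers the spread between 6 samples that may be technical. Position on the slide was 2 for each chromium-restricted array and 4 for each control array, so it cannot be told apart from diet.

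Vmn1r genes encode G protein-coupled receptors of sensory neurons in the vomeronasal organ, where each neuron expresses very few receptor genes and the receptors take part in the detection of pheromones and other chemical cues. They occur in dense clusters that arose by repeated duplication, and their expression is best known from that organ. Methylated DNA immunoprecipitation uses an antibody against 5-methylcytosine, so the amount recovered from a stretch depends on how many CpG sites it holds as well as on how many of them are methylated. A low ratio in a stretch with few CpG sites is therefore not a measure of the methylation level per site.

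In RefSeq (GRCm38.p6), the run of Vmn1r genes from Vmn1r91 to Vmn1r183 on chromosome 7 holds 99 Vmn1r genes, of which 86 are annotated as protein coding and 13 as pseudogenes, out of 176 Vmn1r genes on that chromosome and 373 in all. Promoter sequences, from 250 bases before to 50 bases after each gene's start, were given for 83 of these 99 genes. They are shown here to give the CpG content of receptor promoters of this cluster, with no claim that a given promoter lies under a given probe. All are written 5′ to 3′ on the gene's strand with each CpG in capitals. Vmn1r180 had the fewest CpG sites (0, plus strand, chr7:23952137-23952436), and Vmn1r93 was the first by position of 7 promoters with the most (4, minus strand, chr7:20139039-20139338), a sequence it shares base for base with Vmn1r114, Vmn1r126 and Vmn1r250. Vmn1r111 (2 sites, minus strand, chr7:20703167-20703466) stands for the largest group of identical promoters, and Vmn1r240 (2 sites, minus strand, chr7:20122530-20122829) for a promoter that occurs once.
Vmn1r180: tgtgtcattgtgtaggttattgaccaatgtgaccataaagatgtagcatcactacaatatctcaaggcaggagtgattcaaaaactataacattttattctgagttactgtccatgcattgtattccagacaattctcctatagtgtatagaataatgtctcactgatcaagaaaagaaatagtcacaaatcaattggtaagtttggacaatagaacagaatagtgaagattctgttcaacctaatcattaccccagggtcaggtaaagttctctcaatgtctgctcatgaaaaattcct
Vmn1r93: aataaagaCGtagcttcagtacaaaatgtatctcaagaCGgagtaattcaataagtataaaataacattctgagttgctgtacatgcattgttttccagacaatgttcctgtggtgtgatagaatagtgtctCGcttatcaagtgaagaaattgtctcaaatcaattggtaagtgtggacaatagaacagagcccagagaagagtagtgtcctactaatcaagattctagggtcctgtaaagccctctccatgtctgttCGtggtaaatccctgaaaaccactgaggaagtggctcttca
Vmn1r111: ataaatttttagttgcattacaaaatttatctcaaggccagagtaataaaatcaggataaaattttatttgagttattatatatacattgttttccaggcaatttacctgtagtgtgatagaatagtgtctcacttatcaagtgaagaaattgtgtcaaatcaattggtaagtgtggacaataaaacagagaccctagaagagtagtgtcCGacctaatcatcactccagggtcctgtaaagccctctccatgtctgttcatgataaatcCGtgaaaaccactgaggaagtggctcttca
Vmn1r240: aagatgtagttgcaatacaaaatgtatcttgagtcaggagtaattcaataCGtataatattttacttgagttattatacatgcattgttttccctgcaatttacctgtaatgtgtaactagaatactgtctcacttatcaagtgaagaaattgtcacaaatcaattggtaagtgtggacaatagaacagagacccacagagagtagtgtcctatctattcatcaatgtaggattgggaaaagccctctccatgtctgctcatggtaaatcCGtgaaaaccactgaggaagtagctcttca

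The 83 promoters held 0 to 4 CpG sites, with a median of 2. Across all 32851 promoters in the RefSeq table the median was 7 and the maximum 67, and 38.04% held 4 or fewer. Other chemosensory receptor promoters were poorer still in CpG by the median. The median was 1 site in 123 other Vmn1r genes, in 118 Vmn2r genes (the second vomeronasal family) and in 948 Olfr genes (olfactory receptors). The median GC content was 36.67% in the cluster's promoters, within a range of 34.33% to 43%, against 52.67% over all promoters.

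**Figure D1:**
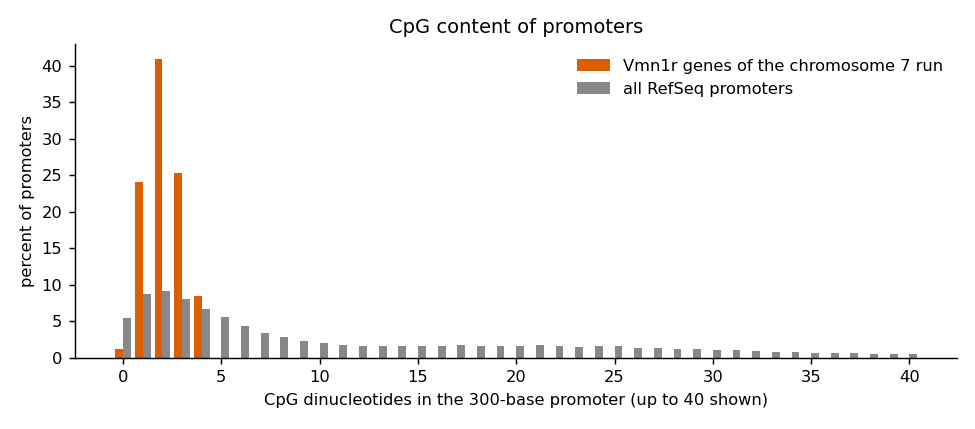
Share of RefSeq promoters (vertical axis, percent) by the number of CpG sites in 300 bases (horizontal axis), for the chromosome 7 Vmn1r run and for all promoters. All 83 promoters of the run lie at 4 sites or fewer. The axis is cut at 40 sites, while all promoters reach 67.

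Many of these promoters were copies of one another. Of the 83, 52 (62.65%) were identical over all 300 bases to at least 1 other promoter of the run, in 20 groups, which left 51 different sequences. The largest group held 6 genes (Vmn1r111, Vmn1r118, Vmn1r131, Vmn1r138, Vmn1r166 and Vmn1r257). Among the promoters of other genes, 464 of 32768 (1.416%) had an identical partner. The word CACTGAGGAAGT, picked after looking at these sequences and searched on both strands, was found in 69 of the 83 promoters (83.13%), always on the gene's strand and 29 bases after the annotated start. It was found in 1 of the 123 other Vmn1r promoters, in 0 of the Vmn2r and Olfr promoters, and in 77 of all 32851 (0.2344%). The Vmn1r93, Vmn1r111 and Vmn1r240 sequences hold it near their 3′ end and the Vmn1r180 sequence does not.

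Across the window, immunoprecipitated signal was low relative to input nearly everywhere. The region means over the 6 arrays ranged from −4.24 to −1.70 on the log2 scale, with a median of −2.77 and quartiles of −3.19 and −2.25, while the median over all regions was −0.109. Of the 76 regions, 70 (92.1%) had a mean below −2, against 345 of 21987 on the whole array (1.57%), and 48 of the 76 were below −2 on each of the 6 arrays separately. These values chose the window, so nothing is read from that contrast. The count depends on the treatment of dim signals. With a normexp background correction 0 of 76 regions were below −2 (0.164% of all regions) and their mean was −1.36, and 52.6% were in the authors' deposited table (0.81% of all regions). Among the 43 window regions that remained when only probes well above background in both channels were used, 37.2% were below −2 (0.526% of all regions), with a mean of −1.60.

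The low stretch ran past both limits of the window. By megabase, 24 of 28 regions were below −2 from 21 to 22 Mb, 23 of 23 from 22 to 23 Mb and 23 of 25 from 23 to 24 Mb. From 20 to 21 Mb 8 of 36 were, and all 8 lay at or after 20685501. From 24 to 25 Mb 1 of 27 was, and the counts were 0 of 10 and 0 of 39 in the megabases from 18 and 19 Mb, and 0 of 35 and 0 of 30 in those from 25 and 26 Mb. Just inside the lower limit, the region from 21002259 to 21003705 averaged −3.25, against −2.47 for the region just outside it, from 20960340 to 20961592. Just inside the upper limit, the region from 23936102 to 23937096 averaged −2.30, against −3.12 for the region just outside it, from 24001347 to 24002765. The median level of the regions from 24 to 25 Mb was −0.819, between −2.77 from 23 to 24 Mb and −0.0506 from 25 to 26 Mb, so the upper end of the stretch was gradual.

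**Figure D2:**
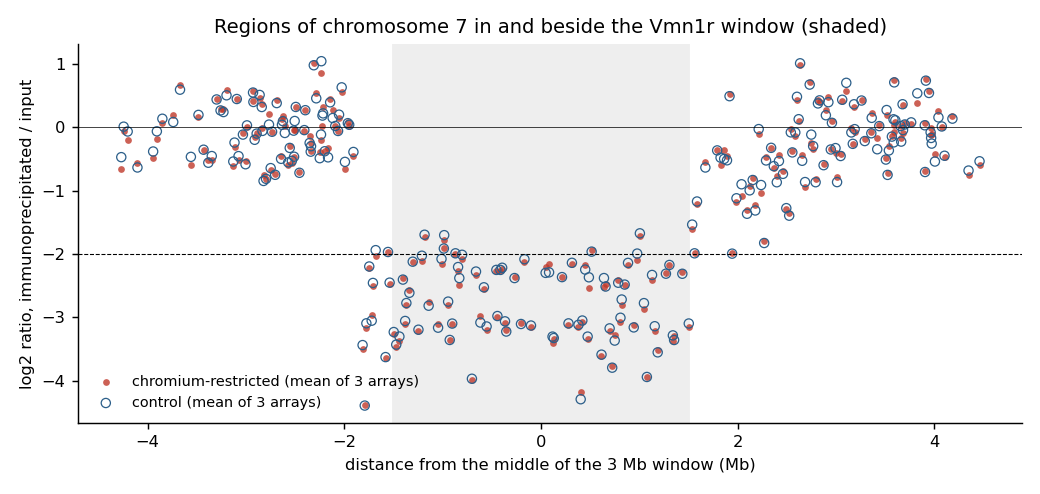
Mean log2 ratio of immunoprecipitated over input signal (vertical axis) for each region of chromosome 7 near the window. Each diet is drawn separately as a mean of 3 arrays, against distance from the window's middle (horizontal axis, Mb). Regions inside the window lie between −4.24 and −1.70, and the medians of the flanking 3 Mb on each side are −0.125 and −0.228.

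Other low stretches of the array were of the same order. In a stretch near the distal end of chromosome 2, 26 of 34 regions (76.5%) had means below −2, with a median of −2.25. In a pair of stretches of chromosome 4 the counts were 17 of 22 (77.3%) with a median of −2.47, and 14 of 18 (77.8%) with a median of −3.09. The window's median lies between those of the other low stretches, which were likewise picked from these arrays.

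The lowest region of the window ran from 22902839 to 22903963. Its log2 ratio was −4.16, −4.57 and −3.83 on the chromium-restricted arrays, against −4.66, −4.09 and −4.15 on the control arrays. None of its 4 probes was above background in the immunoprecipitated channel on any array. These values thus rest on a signal not told apart from background, and no bound on the true ratio was computed. The next lowest ran from 21797049 to 21798285, with −4.09, −4.38 and −3.52 on the chromium-restricted arrays, against −4.41, −3.68 and −3.83 on the control arrays, and its 4 probes were likewise never above background. The regions starting at 23575376, 23222823 and 23114311 followed, at −3.94, −3.78 and −3.60. In each region the arrays of the diets overlapped.

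At the other end, the highest region ran from 23504236 to 23505715, with −1.76, −1.98 and −1.43 on the chromium-restricted arrays, against −1.98, −1.44 and −1.60 on the control arrays. The regions from 21315467 to 21316946 (mean −1.72) and from 21515150 to 21516629 (mean −1.74) came next. These 3 highest regions carry the same probe layout, described below. The regions from 21511540 to 21513133 (−1.91), from 23014078 to 23015346 (−1.95) and from 21629585 to 21630842 (just above the −2 limit) complete the 6 that were not below −2.

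The channels behind the ratio were measured separately. The median background-subtracted input signal of window probes, before dye normalization, was 149, 263 and 91.0 intensity units on the chromium-restricted arrays, against 346, 75.9 and 146 on the control arrays. Over all probes the same medians were 53.1, 83.9 and 46.1 on the chromium-restricted arrays, against 98.4, 38.1 and 60.5 on the control arrays. The input was thus brighter in the window on every array, by 1.97 to 3.52 times.

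The immunoprecipitated signal was dimmer in the window on every array. Its median over window probes was 37.4, 34.4 and 28.8 units on the chromium-restricted arrays, against 36.8, 34.2 and 26.3 on the control arrays, against medians over all probes of 143, 125 and 113 units with chromium restriction and 140, 134 and 98.5 units with control diet. The window-to-array ratio of these medians was 0.264 ± 0.0101 in chromium-restricted arrays and 0.262 ± 0.00611 in control arrays (SD, n = 3 each). For the input the ratio of medians was 2.64 ± 0.599 in chromium-restricted arrays and 2.64 ± 0.791 in control arrays (SD, n = 3 each). The input ratio varied far more between arrays than the immunoprecipitated one. These medians are over probes of all lengths, and the lengths differed between the window and the rest of the array, as given below.

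A large part of the immunoprecipitated signal was at background. Of the 412 window probes, 186 (45.1%) were not well above background in that channel on any array, against 20.9% of the probes elsewhere, and 208 (50.5%) were above it on all 6 arrays, against 75.8% elsewhere. The input was above background on all arrays for 399 probes (96.8%), against 73.5% elsewhere, and no window probe was saturated. For 174 of the 186 the input was above background on all arrays. Their log2 ratios, from −5.82 to −2.09 with a median of −4.28, rest on an immunoprecipitated signal not told apart from background. For the other 12 the input too was not above background on every array, and their ratios ran from −3.74 to −1.53. No bound on the true ratios was computed. The 208 that were above background on all arrays ranged from −4.66 to 0.542, with a median of −1.21, so some window probes had a ratio above the array's median probe.

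Within single regions the probes differed widely. Every one of the 76 regions held a probe below −3, and 51 of them also held a probe above −1. The median gap between a region's highest and lowest probe was 3.76 on the log2 scale, within a range of 1.39 to 6.02, against 3.26 over all regions. Over probes, 212 of 412 (51.5%) were below −3, against 2.75% elsewhere, and 83 (20.1%) were above −1, against 78% elsewhere. In the 51 regions that held both, the mean is thus an average over probes beyond these 2 limits on either side. Taking the median over probes in place of the mean left 68.4% of regions below −2.

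Probe length differed too, and moved with the ratio. The window held fewer short probes, with 21.8% of its probes at 45 to 49 bases against 66.1% elsewhere, and more of the longest, with 40.8% at 60 bases against 13.1% elsewhere. In the window the median log2 ratio was −0.857 for probes of 45 to 49 bases, −1.93 for 50 to 54, −3.31 for 55 to 59 and −4.03 for 60. Elsewhere the medians in the same order were 0.171, −0.157, −0.405 and −0.62. At equal probe length the immunoprecipitated signal was much closer to that elsewhere than over all probes. Its medians in the window were 220, 66.2, 20.1 and 11.8 units from the shortest class to the longest, against 230, 62.7, 37.6 and 8.81 units elsewhere. The median input signals were 252, 190, 220 and 119 units in the window, against 102, 41.6, 30.3 and 13.4 units elsewhere. Within each length class the input was thus brighter in the window, while the immunoprecipitated signal was dimmer in 2 of the 4 classes. The share of probes never above background in the immunoprecipitated channel was 1.11% (1 of 90) at 45 to 49 bases in the window, against 7.52% elsewhere, and 72% (121 of 168) at 60 bases, against 69.8% elsewhere. In the longest class most probes of both sets thus had no detected immunoprecipitated signal. The part of probe length in the low level of the window was not tested.

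The duplicated nature of the cluster was visible in the array design. Of the 76 regions, 41 shared their whole layout (the spacings between probes and every probe length) with at least 1 other window region, in 19 families, of which 16 had 2 copies and 3 had 3 copies. Among the 21911 regions outside the window 114 shared a layout with another. Counting 8 further copies between 20.7 and 21 Mb, 48 window regions had a partner. Copies lay at repeated distances from each other. Of the pairs, 8 were 2188768 to 2188814 bp apart, 5 were 474876 to 482807 bp apart, and 4 were 1223189 to 1223198 bp apart. Probes with the same layout may be complementary to the same DNA, and with no probe sequences here the signal of one copy cannot be told apart from that of another.

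Regions of the same layout gave nearly the same values. The pooled SD of region means within families was 0.0448, against 0.497 between families and 0.588 over all 76 regions. The widest range within a family was 0.228, between the regions starting at 21629585 and 22104461. At the level of single probes, over 105 probe positions, the pooled SD between copies was 0.0999, against 1.59 between positions. The pattern of high and low probes inside a region was therefore repeated from copy to copy.

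An example is the layout whose 3 copies start at 21288143, 21487810 and 23476911. Their 5 probes averaged −4.47, −0.43, −0.49, −4.07 and −0.90 in the first copy, −4.48, −0.56, −0.45, −4.22 and −0.87 in the second, and −4.47, −0.51, −0.55, −3.81 and −0.89 in the third copy. In each copy the first probe and the one before the last were low and the other 3 were all above −1. In the family of the 3 highest regions, the first probe averaged −0.18, −0.21 and −0.14, and the second −3.39, −3.48 and −3.24. The regions starting at 22546073 and 23769271 had the widest contrast among the regions that share a layout, with a first probe at −5.51 and −5.52 and a last probe at 0.38 and 0.31. Their immunoprecipitated signal was 884 and 903 units at the last probe, against 4.79 and 5.21 units at the first. The copies lay 1223198 bp apart.

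**Figure D3:**
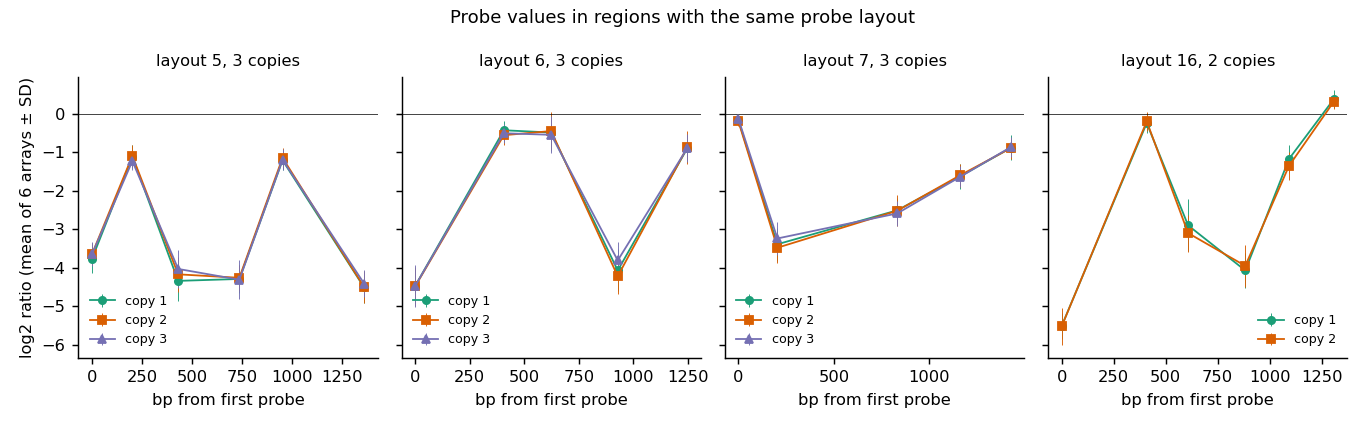
Mean log2 ratio over 6 arrays (vertical axis) of each probe against its distance from the region's first probe (horizontal axis, bp), for 4 probe layouts that occur 2 or 3 times in the window. Lines of the copies of a layout lie almost on each other while single probes of a region run from above 0 to below −5.

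Some copies lay outside the window. The layout of the lowest window region averaged −4.24 in the window and −4.39 in its copy outside, from 20707503 to 20708627. For the copy from 20818752 to 20820020 the layout averaged −1.95 in the window and −1.99 outside, and for the copy from 20753307 to 20754564 it averaged −2.21 in both places. The widest gap among the 8 layouts was for the copy from 20943776 to 20945327, with −2.45 in the window and −1.97 outside. These copies lie outside the 21 Mb limit, and they may hybridise the same DNA as their partners in the window.

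The level of the whole window differed between arrays more than between diets. The mean over the 76 regions was −2.81, −3.08 and −2.38 on chromium-restricted arrays 1, 2 and 3, against −3.17, −2.41 and −2.63 on control arrays 1, 2 and 3. The lowest value was thus in a control array and the highest in a chromium-restricted one, and the groups overlapped. The group means were −2.75 ± 0.355 for chromium-restricted arrays and −2.74 ± 0.391 for control arrays (SD, n = 3 each), a difference of −0.0187, while the arrays spanned 0.794. The share of window regions below −2 was 93.4%, 98.7% and 64.5% on chromium-restricted arrays, against 98.7%, 69.7% and 82.9% on control arrays.

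The spread between arrays moved with the input signal. The arrays ordered by their median window input, from control array 1 (346 units) over chromium-restricted arrays 2 (263) and 1 (149) and control array 3 (146) to chromium-restricted array 3 (91.0) and control array 2 (75.9), had window means of −3.17, −3.08, −2.81, −2.63, −2.38 and −2.41. Only the last pair broke the order. Low regions elsewhere on the array, those just outside the window included, had a similar order of arrays over a smaller range, 0.632. Their means were −2.84, −3.04 and −2.48 on chromium-restricted arrays, against −3.11, −2.48 and −2.73 on control arrays. The rest of chromosome 7 spanned 0.131 across the 6 arrays. Probes above background in both channels averaged −1.55, −1.81 and −1.19 in the window of chromium-restricted arrays and −1.87, −1.19 and −1.38 in that of control arrays, so the order of arrays was nearly the same among detected probes. The part of input brightness in this spread was not tested.

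**Figure D4:**
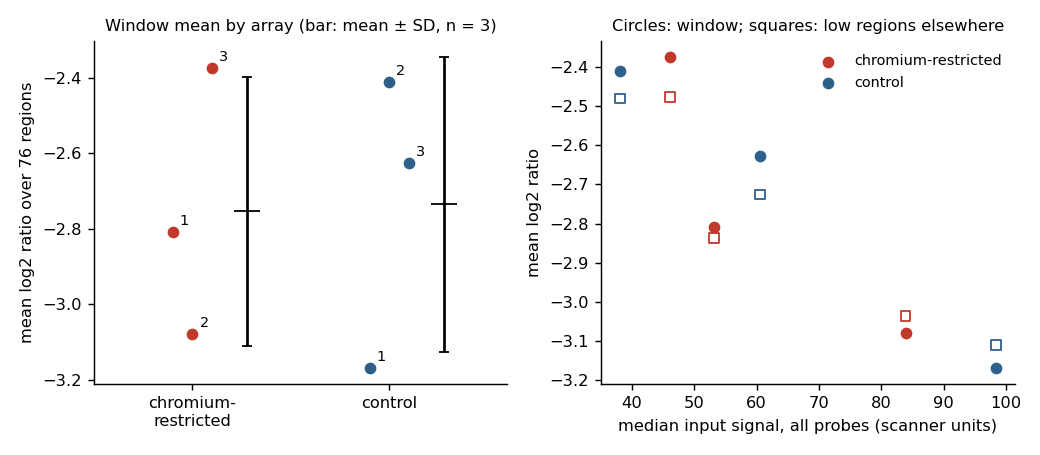
Mean log2 ratio of the window's regions on each array, by diet and replicate, with chromium-restricted arrays left of control arrays. The same means are also drawn against the median input signal of all probes (intensity units), with squares for low regions elsewhere. The window means run from −3.17 to −2.38 and are lowest on the arrays with the brightest input.

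Same-numbered arrays of the groups shared a scan. Within scans, the window mean of the chromium-restricted array minus that of the control array was 0.361, −0.669 and 0.252. The sign differed between scans, and no scan gave a value near the pooled difference.

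The comparison of diets asked whether maternal chromium restriction left a difference in methylated DNA across this window in the offspring. No region of the window passed the test. With limma and Benjamini-Hochberg adjustment over all regions, 0 of 76 regions had an adjusted p under 0.05, against 0 of 21987 on the array (0%), and the adjusted p was 1 for all 76. At an unadjusted p under 0.05 there were also 0 of 76, against 0.896% of all regions, and the lowest unadjusted limma p in the window was 0.391. The 3 chromium-restricted arrays lay all above the 3 control arrays in 0 regions, against 2.49% of all regions, and all below them in 0, against 1.95%. In all 76 regions the difference was smaller than the smaller of the 2 group SDs. A p that misses the threshold does not show that the diets gave the same level.

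The differences ran from −0.172 to 0.125, with a median of −0.0235, against 0.00402 over all regions. The chromium-restricted mean was the lower one in 51 of 76 regions, against 47.5% of all regions, and the higher one in 25. These signs are not independent, since the regions share arrays, layouts and the input signal. Leaving out chromium-restricted array 2 or 3 left the chromium-restricted mean lower in 1 and 75 of 76 regions, and leaving out control array 1 or 2 left it lower in 75 and 0. The direction thus rested on which of these arrays entered.

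The precision was lower here than elsewhere. The median SD over the 6 arrays was 0.344 for window regions, against 0.113 over all regions, and the median 95% confidence interval of the difference reached 0.524 to each side, against 0.218. Differences below about that size were not detectable for a typical window region with 3 arrays a group.

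The largest positive difference was in the region from 22581328 to 22582583. Its log2 ratio was −2.12, −2.40 and −1.97 on chromium-restricted arrays, against −2.50, −2.09 and −2.28 on control arrays, a difference of 0.125 (SE 0.138, 95% interval −0.192 to 0.442). The arrays of the diets overlapped, and the limma unadjusted p was 0.391 and the adjusted p was 1. The regions starting at 22902839, 21883110, 22546073 and 23248672 followed, with differences of 0.110, 0.102, 0.0867 and 0.0859.

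The most negative difference was in the region from 22985858 to 22987509. Its log2 ratio was −2.94, −2.74 and −1.94 on chromium-restricted arrays, against −2.84, −2.02 and −2.24 on control arrays, a difference of −0.172 (SE 0.280, 95% interval −0.814 to 0.470). The highest value and the lowest both belonged to chromium-restricted arrays. The limma unadjusted p was 0.556 and the adjusted p was 1. The regions starting at 23139083, 21668715, 23476911 and 22616365 followed, at −0.143, −0.113, −0.107 and −0.100. The region at 21668715 shares its probe layout with the one at 22985858. Over the layout families the SD of the difference was 0.0396 within families and 0.0542 between them.

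**Figure D5:**
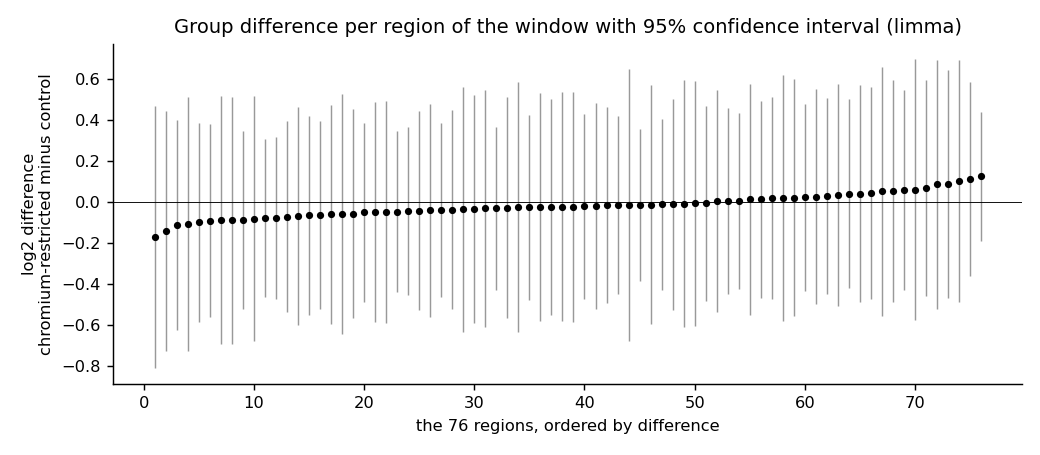
Difference in mean log2 ratio, chromium-restricted minus control (vertical axis), for each of the 76 regions with 95% confidence intervals from limma. The regions are ordered by their difference, not by position (horizontal axis). The differences lie between −0.172 and 0.125 and every interval includes 0.

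Single probes gave no call. Of the 412 window probes, 0 had an adjusted limma p under 0.05, against 0 of 174278 on the array (0%), and 0 had an unadjusted p under 0.05, against 1.30% of all probes. The lowest unadjusted p was 0.164 and its adjusted p was 1. Detected probes averaged −1.52 ± 0.308 in chromium-restricted arrays and −1.48 ± 0.351 in control arrays, and probes never above background in the immunoprecipitated channel averaged −4.08 ± 0.418 in chromium-restricted arrays and −4.07 ± 0.434 in control arrays (SD, n = 3 each). Both classes differed between diets by less than the spread between arrays.

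The longest region ran from 23195988 to 23199016 with 9 probes and averaged −3.20, and the regions starting at 22396501 and 22879276, also with 9 probes, averaged −3.15 and −3.14. The widest spread between arrays was in the regions starting at 23349935, 22985858 and 23852050, with SDs over the 6 arrays of 0.443, 0.438 and 0.426. None of these regions passed the test of diet.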

How the data were processed

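The 6 arrays of offspring liver at 32 weeks comprised 3 per diet. Per the file headers, the scanner software was Feature Extraction 11.0.1.1 and the design was placed on mm9. Also per the file headers, the deposited processed signals are intensity values after subtraction of a local background and multiplication by a linear dye factor for the channel, without lowess. The authors' deposited table holds normalized log ratios, taken as log2 although no source used here states its base, its centring or any smoothing. Column medians ran from 0.0348 to 0.0396 with chromium restriction and from 0.0308 to 0.0374 with control diet. Its direction was taken from a correlation over probes of 0.751 to 0.854 with the red over green ratio of the same array, and it served as an alternative.

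Processed red over processed green was put on the log2 scale and centred, array by array, on the median of all kept probes. The 5827 control spots were dropped, as were 360 of 174638 probes that carried a flag on any array. Regions were averaged over probes and fitted with limma 3.58.1 in R 4.3.3 (lmFit and eBayes, diet as the only term), with Benjamini-Hochberg adjustment over all 21987 regions or 174278 probes and 0.05 as the threshold. The fit was tested on simulated data. The number of arrays limits the precision.

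The members and lists were chosen with earlier results of these data known. Regions named are the 5 lowest and 5 highest in level, the 5 largest differences in each direction, the longest and those with most probes, the 3 with the widest spread and those at the window's edges. Regions singled out for their probe layout, and the region at 21629585, the one nearest to −2, were chosen after their values were seen. Promoter sequences and gene names are from RefSeq (GRCm38.p6), and no coordinates were converted between builds. Gene lists by region and checks of liver or fat markers need an annotation of mm9 and were not analysed here. Alternatives were another background correction, the authors' table, filters on probes, other centring, region definitions and window limits, a replicate block, an intensity-dependent prior and each array left out. Same-numbered arrays shared a scan, and their deviations over regions were compared for pairing.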

Additional observations from a re-analysis of the deposited data

How the results depend on the processing

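The count of window regions with an adjusted p under 0.05 was 0 under all 20 alternatives run, and the count of probes was 0 under all 14. At an unadjusted limma p under 0.05, 1 region was counted when the window was widened to 20 to 24 Mb and 0 otherwise, and 1 probe in the authors' deposited table. Leaving out 1 array at a time gave 0 to 3 probes. The mean difference, −0.0187, stayed within the spread between arrays under all 19 alternatives and ran from −0.236 to 0.144 with 1 array left out. The share of regions below −2, 92.1%, was 0 with normexp, 52.6% in the authors' table, 37.2% with only probes well above background, 68.4% with medians over probes and 69.6% (78 of 112) from 20 to 24 Mb, and 88.2% to 94.7% with 1 array left out. With 1 array left out, differences changed sign at 22902839 (−0.0703 to 0.302), 21883110 (−0.155 to 0.281), 22546073 (−0.135 to 0.294), 23248672 (−0.158 to 0.326), 22985858 (−0.470 to 0.0253), 23139083 (−0.411 to 0.0759), 21668715 (−0.355 to 0.0712), 23476911 (−0.389 to 0.0906) and 22616365 (−0.291 to 0.0707), while that at 22581328 stayed positive (0.0192 to 0.243). The cause was not tested. The replicate block called 0 regions and 0 probes, with a mean difference of −0.0187. Deviations of same-numbered arrays correlated at 0.145, −0.591 and 0.197, so the numbers share a scan but did not pair the values. Signal over background limits these results. For 174 of 412 probes the input was above background on all arrays and the immunoprecipitated signal on none. Another 12 have neither channel above background on all arrays.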
